A study of Mus musculus with 3 samples.

Results

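The genes described here encode the proteins of the cytosolic ribosome in mouse peritoneal macrophages. They are the 69 of 20574 listed gene symbols that carry a standard large-subunit (Rpl, Rplp) or small-subunit (Rps, Rpsa) name, 42 for the large and 27 for the small subunit. The choice rests on symbols alone and on no measured value, though it was made with earlier results of these data known. The paralogue forms Rpl3l, Rpl7l1, Rpl10l, Rpl39l and Rps4x are 5 of the 69. Further standard ribosomal protein symbols, among them Rpl13a, Rplp2, Rps9 and Rps19, are not analysed here.

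The RNA came from primary peritoneal macrophages of mice, kept in DMEM, and 1 library was sequenced for each of 3 conditions. The first library came from untreated cells, for which no time in culture is given. In the second, macrophages had been kept for 5 h with apoptotic cells at 5 per macrophage, and cells that had not been engulfed were rinsed away before harvest. The third came from macrophages given LPS, a bacterial lipid that triggers inflammatory signalling, at 100 ng/ml for 5 h. Strain, genotype, age and pooling of the donor mice and the source of the apoptotic cells are not given in the labels. The study's title concerns mitochondrial fuel use in macrophages that engulf dying cells and turn to tissue repair. Values are FPKM, fragments scaled to transcript length and to library size, so levels of different genes can be set side by side. Because each condition has 1 library, each difference below is a difference between libraries with no replicate check, and no test was run. Treatment cannot be told apart from handling, from time in culture or from the preparation, and in RNA from mixed cells fewer cells of a type and less RNA per cell cannot be told apart.

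A eukaryotic ribosome joins a small subunit, which holds the mRNA and reads its codons, to a large subunit, which forms peptide bonds and passes the growing chain out through a tunnel. Most ribosomal proteins are present once per ribosome and bind ribosomal RNA while the subunits are built in the nucleolus. Their mRNAs typically begin at a C followed by a run of pyrimidines, the terminal oligopyrimidine (TOP) tract, through which mTOR signalling and the binding protein LARP1 adjust their translation. In macrophages, ribosomal protein mRNAs are among the most abundant transcripts.

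A tract at the annotated start of the mRNA was found in a minority of members, at a larger share than over all coding genes. A coding transcript opening with C and at least 4 further C or T was annotated for 17 of 68 members with a gene model, against 801 of 16318 coding genes in the files, or 4.91%. The motif was sought on the transcript strand only, and each count takes a gene as positive if any of its coding transcripts matched. With up to 5 bases allowed before the tract, 25 of 68 members (36.8%) matched against 20.8% of coding genes. Counted per transcript, the opening tract was found in 12.1% of member transcripts and 2.14% of all coding transcripts. In RefSeq windows reaching from 250 bases before to 50 after a gene's start, a tract within 5 bases of the start was present for 17 of 50 members (34.0%) and for 13.4% of 27025 genes. A match is a description of annotated letters, and annotated starts can lie some bases away from the true start. The first 20 bases are shown for 1 matching coding transcript of each of 8 genes. The 8 range from long to short tracts, and their genes differ in listing and in level below. The transcripts shown for Rps24, Rps2, Rps25, Rpl29 and Rps10 start inside the annotated gene, which has other coding transcripts. Coordinates and sequence are those of GENCODE release M21 on mm10, and capitals mark the tract.
Rps24 chr14:24490718-24490737, plus strand: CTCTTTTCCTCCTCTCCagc
Rpl32 chr6:115808728-115808747, minus strand: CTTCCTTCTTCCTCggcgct
Rps2 chr17:24720110-24720129, plus strand: CTTCTTCTTCTTCgggagaa
Rps25 chr9:44407695-44407714, plus strand: CCTTTTTTTCCgacatctta
Rpl4 chr9:64173375-64173394, plus strand: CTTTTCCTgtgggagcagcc
Rpl29 chr9:106429538-106429557, plus strand: CTCTTCCggtctccggcgct
Rpl36 chr17:56613416-56613435, plus strand: CTTCCTgtcccggccgccat
Rps10 chr17:27635221-27635240, minus strand: CTTTCCagcctccgcctcgg
In the transcripts shown, the tract ran for 17 bases in Rps24, 14 in Rpl32, 13 in Rps2 and 11 in Rps25. It ran for 6 in Rpl36 and Rps10. All of these genes are abundant in at least 1 library, and Rpl4 and Rps10 are each listed at 0 in another.

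Ribosomal protein transcripts made up a large share of each library. Summed over all members they were 41.9% of the listed FPKM without treatment, 27.6% after apoptotic cells and 26.0% after LPS. Over the 42 members above 0 in all 3 libraries, the shares were 33.6%, 22.8% and 16.5% in the same order. Both sets of shares are taken of the sum of listed values, and listed zeros differed between libraries. Of all genes above 0 in both other libraries, 38.6% were at 0 untreated, 18.6% with apoptotic cells and 21.9% with LPS. The part of these zeros in the shares was not tested. The median member above 0 stood at 1454 FPKM untreated, 881 FPKM with apoptotic cells and 779 FPKM with LPS. The untreated library was thus the highest by each of these measures, and the order of the other 2 libraries was the same by each. Marker genes of B cells (863, 211 and 194 FPKM in sum) and of mast cells and eosinophils (105, 20.9 and 10.5 FPKM) were also highest in the untreated library, and their part in these differences was not tested.

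**Figure D1:**
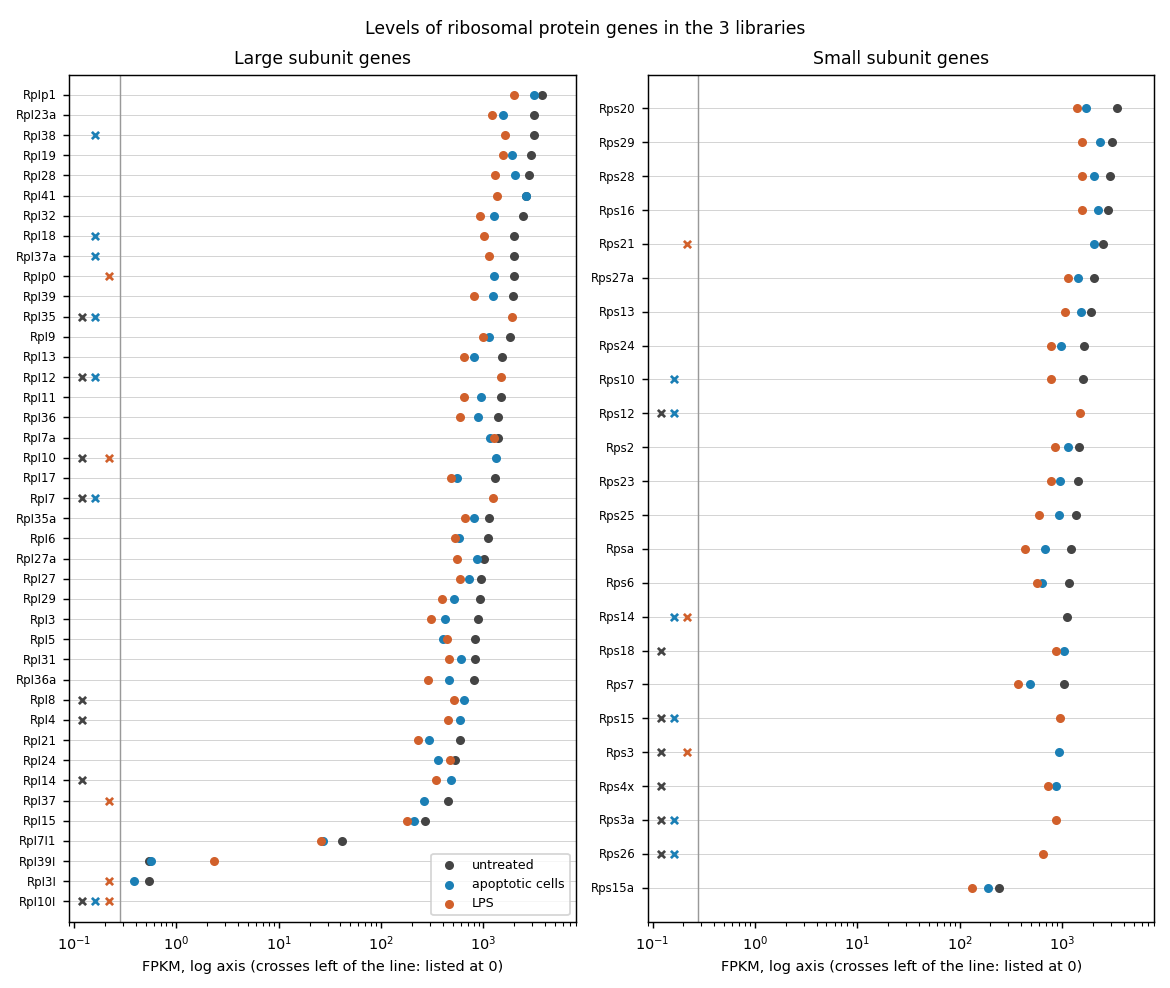
FPKM of the ribosomal protein genes described in the text in each library (untreated, apoptotic cells, LPS), on a log axis, with large-subunit genes at left and small-subunit genes at right, and crosses for values listed at 0. Most members with a value lie above 100 FPKM, with the untreated point farthest right, Rplp1 is the highest in each library, and the paralogue forms Rpl39l, Rpl3l and Rpl10l sit near or at 0.

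Members were not equally abundant. Among the 40 members over 100 FPKM and above 0 in all 3 libraries, the highest exceeded the lowest 15.4-fold untreated, 16.4-fold with apoptotic cells and 14.9-fold with LPS. The extremes were the same genes each time, Rplp1 at the top and Rps15a at the bottom. The coefficient of variation over these 40 was 55.3%, 64.4% and 56.8%, and their medians were 1411, 941 and 652 FPKM. Short mRNAs of this size give length-scaled values that depend on how effective length was set, which the sources do not state.

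A part of the members was listed at exactly 0 in a library although the same gene was abundant elsewhere. In the untreated library 17 of 69 members were at 0 (9 large, 8 small), with apoptotic cells 16 (8 large, 8 small) and with LPS 8 (5 large, 3 small). Over all listed genes 67.2%, 61.3% and 61.9% were at 0. Among genes above 0 in both other libraries, 5 of 47 members were at 0 in the untreated library, where the share of all genes was 38.6%. The counts were 5 of 47 with apoptotic cells, against 18.6% of all genes, and 4 of 46 with LPS, against 21.9%. In percent, members were at 10.6%, 10.6% and 8.70%, and other genes with at least 100 FPKM in the other libraries were at 0 in 48 of 195, 34 of 153 and 34 of 162 cases. The members had the smallest of these shares in each library, and the difference was not tested.

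**Figure D2:**
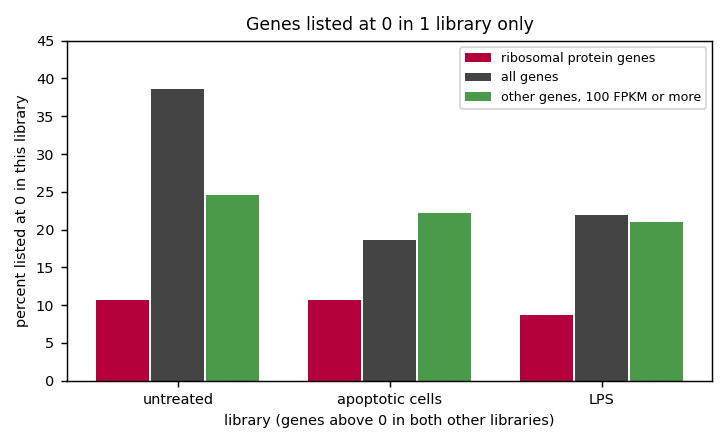
Percent of genes listed at 0 in 1 library among genes above 0 in both others, for ribosomal protein genes, all genes and other genes averaging 100 FPKM or more in those 2 libraries. Members stand at 10.6% (untreated), 10.6% (apoptotic cells) and 8.70% (LPS), below both other bars in each library.

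A listed 0 is reported as listed. It is not read as absence, and no detection limit was drawn from it. No fold change was drawn from it either, except in the alternative that takes a listed 0 as a value. Summed FPKM count it as 0. In just 1 library, 5 members were at 0 untreated, 5 with apoptotic cells and 4 with LPS. Another 9 were at 0 both untreated and with apoptotic cells but not with LPS, 2 both untreated and with LPS, and 1 in both treated libraries. These patterns in 2 libraries were not counted over all genes, so they are not read as a trait of the members. Rpl10l was at 0 in all 3 libraries.

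The stalk of the large subunit recruits the elongation factors. Rplp1, an acidic stalk protein (chr9:61913284-61914542), was listed at 3703 FPKM untreated, 3125 with apoptotic cells and 1993 with LPS. The apoptotic-cell library thus held 84.4% of the untreated level and the LPS library 53.8%. Rplp0, the stalk base on which the acidic proteins assemble, was listed at 1967 FPKM untreated, 1268 with apoptotic cells and at 0 with LPS. Rpl12, which binds beside it, was listed at 1490.0 FPKM with LPS and at 0 in both other libraries. Rpl9, near the site where elongation factors bind, stood at 1810.5 FPKM untreated, 1124 with apoptotic cells and 990.2 with LPS. Those with a value untreated were lower in each treated library that listed them above 0.

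Rpl5 and Rpl11 bind 5S ribosomal RNA together and, when free of ribosomes, the p53 regulator MDM2. Rpl5 (chr5:107900502-107909005) was listed at 836 FPKM untreated, 404 with apoptotic cells and 439 with LPS. Its log2 ratio to untreated was -1.05 with apoptotic cells and -0.93 with LPS. By the listed values it was thus among the 4 members lower with apoptotic cells than with LPS. With median-of-ratios scaling 26 of 47 members were. Rpl11 was listed at 1477 FPKM untreated, 956 with apoptotic cells and 639 with LPS, with ratios of -0.63 and -1.21. The partners therefore took opposite orders between the treated libraries.

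Several large-subunit proteins lie around the peptidyl transferase centre and the site where tRNA enters. Rpl3 (chr15:80077791-80091868), whose loop reaches toward that centre, was listed at 878 FPKM untreated, 420.0 with apoptotic cells and 304 with LPS. Its LPS level was 34.6% of untreated, the lowest ratio of all members in that comparison. Rpl10, which joins late and lies by the tRNAs, was at 0 in 2 libraries and at 1335 FPKM with apoptotic cells. Rpl8, a conserved core protein near the same centre, was at 0 untreated, 647 FPKM with apoptotic cells and 518 with LPS. Listed zeros thus fell on these core proteins in different libraries. Rpl36a, which contacts the exit-site tRNA, stood at 804 FPKM untreated, 456 with apoptotic cells and 284 with LPS. Rpl29 stood at 930.2 FPKM untreated, 519.6 with apoptotic cells and 389.8 with LPS. Rpl3 and Rpl36a were among the 3 members with the lowest LPS ratio.

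Other large-subunit proteins line the exit tunnel or ring its mouth, where the signal recognition particle docks. Rpl4, whose loop narrows the tunnel, was at 0 untreated, 596 FPKM with apoptotic cells and 449 with LPS. Rpl17, at the tunnel, stood at 1294 FPKM untreated, 549 with apoptotic cells and 477 with LPS. Its ratio of -1.24 with apoptotic cells was the lowest of any member in that comparison, and with LPS it was -1.44. Rpl23a (chr11:78180932-78183584), the docking protein at the mouth, stood at 3145 FPKM untreated, 1547 with apoptotic cells and 1207 with LPS. Rpl23a was thus among the 5 highest members in the untreated library and at least 2-fold lower in both treated ones. Rpl39, a short tunnel protein, stood at 1925 FPKM untreated, 1229.7 with apoptotic cells and 808 with LPS. Rpl35, also at the mouth, was listed at 1879 FPKM with LPS and at 0 elsewhere, and was the member next to Rplp1 in that library. Rpl31 stood at 818 FPKM untreated, 605 with apoptotic cells and 458 with LPS. A value above 0 with LPS alone, as for Rpl35, was the most frequent pattern of zeros among members, and its share over all genes was not counted. Rpl19, which also reaches the small subunit in a bridge, stood at 2894 FPKM untreated, 1882 with apoptotic cells and 1548 with LPS. Rpl38, known for its role in embryonic patterning, was listed at 3125 FPKM untreated, 0 with apoptotic cells and 1610.2 with LPS. Every tunnel gene with a value in the untreated library was lower in each treated library that listed it above 0.

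Rpl24 and Rpl41 lie at the face that meets the small subunit. Rpl24, a bridge protein, stood at 527 FPKM untreated, 358 with apoptotic cells and 476 with LPS. Its LPS level was 90.3% of untreated, so that its ratio of -0.15 was close to 0. Rpl41 (chr10:128548114-128549305), the shortest ribosomal protein, stood at 2623 FPKM untreated, 2582 with apoptotic cells and 1368 with LPS. Its ratio was -0.02 with apoptotic cells and -0.94 with LPS, and between the treated libraries its ratio was 0.92, the highest of any member. Rpl7a (chr2:26910764-26913318), a core protein of the large subunit, stood at 1378 FPKM untreated, 1165 with apoptotic cells and 1264 with LPS, so all its values lay within a narrower range than those of most members. By the listed values Rpl24 and Rpl7a were thus higher with LPS than with apoptotic cells, while Rpl41 kept the order of most members.

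The remaining large-subunit members mostly bind the ribosomal RNA surface. Rpl13 stood at 1526 FPKM untreated, 804 with apoptotic cells and 650.0 with LPS. Rpl32 stood at 2457 FPKM untreated, 1276 with apoptotic cells and 918 with LPS. Rpl21 stood at 584 FPKM untreated, 296 with apoptotic cells and 232 with LPS. In each of these, the LPS level was under the apoptotic-cell level and both were under the untreated level. Rpl6 stood at 1098 FPKM untreated, 577 with apoptotic cells and 529 with LPS. For Rpl28, which budding yeast lacks, the values were 2772, 2011 and 1291 FPKM. For Rpl36 they were 1384, 878 and 588 FPKM. The same order, untreated over apoptotic cells over LPS, held for these genes. For Rpl27 the values were 954, 718 and 588 FPKM. For Rpl27a, a core protein, they were 1006, 865 and 555 FPKM. For Rpl35a they were 1135, 809.5 and 654 FPKM. These 3 differed less from untreated with apoptotic cells than the median member did. Rpl15, the lowest standard large-subunit gene above 0 in each library, had 266, 208 and 180.3 FPKM. Rpl37, a zinc-binding protein, was listed at 449 FPKM untreated, 260.3 with apoptotic cells and 0 with LPS. The similarly named Rpl37a was listed at 1972, 0 and 1134 FPKM, with the 0 in a different library. The proteins of this pair differ despite their similar names. Rpl18 was listed at 1996, 0 and 1007 FPKM, a ratio of -0.99 with LPS. Rpl14 was at 0 untreated, 484 FPKM with apoptotic cells and 344 with LPS. Rpl7 had a value with LPS alone, 1241 FPKM.

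On the small subunit, Rps23, Rps2 and Rps3 serve decoding and the entry of mRNA. Rps23, in the decoding centre, stood at 1436 FPKM untreated, 952 with apoptotic cells and 778 with LPS. Rps2, at the entry channel, stood at 1472 FPKM untreated, 1153 with apoptotic cells and 858 with LPS. Rps3, also at the entry, was at 0 untreated and with LPS, and at 927 FPKM with apoptotic cells. Rps15, near the decoding site, had a value with LPS alone, 954 FPKM. The genes above 0 throughout followed the order of most members by the listed values.

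Rpsa, Rps7, Rps14, Rps26 and Rps28 belong to the region where mRNA leaves or to the nearby platform. Rpsa, also known as the laminin receptor precursor, stood at 1215 FPKM untreated, 682 with apoptotic cells and 439.6 with LPS. Rps7 (chr12:28630854-28635953) stood at 1051 FPKM untreated, 489 with apoptotic cells and 368 with LPS. Its ratio was -1.10 with apoptotic cells and -1.51 with LPS, the lowest of the small-subunit genes in both comparisons. Rps28 stood at 2928 FPKM untreated, 2051 with apoptotic cells and 1576 with LPS. Rps14 was listed at 1112 FPKM untreated and at 0 in both treated libraries, the sole member with this pattern. Rps26 was listed at 655 FPKM with LPS and at 0 in the other libraries.

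The head of the small subunit swivels as the ribosome moves along the mRNA. Rps20, a head protein, stood at 3442 FPKM untreated, 1723 with apoptotic cells and 1399.6 with LPS. With apoptotic cells its level was 50.1% of untreated, just short of 2-fold lower. Rps29, a zinc-binding head protein, stood at 3062 FPKM untreated, 2337 with apoptotic cells and 1561 with LPS. Rps16, whose tail reaches the tRNA, stood at 2801 FPKM untreated, 2274 with apoptotic cells and 1581 with LPS. Rps20 was among the 5 highest members in the untreated library, and Rps29 and Rps16 were among the 5 highest with apoptotic cells. Rps25, needed by some viral internal ribosome entry sites, stood at 1387 FPKM untreated, 931 with apoptotic cells and 597 with LPS. Rps18 was at 0 untreated, 1054 FPKM with apoptotic cells and 870.1 with LPS. Rps10 was listed at 1591 FPKM untreated, 0 with apoptotic cells and 779 with LPS. Listed zeros thus fell on head genes in different libraries. Rps12 had a value with LPS alone, 1506 FPKM.

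Body proteins of the small subunit include Rps6, the substrate of the S6 kinases downstream of mTOR. Rps6 stood at 1165 FPKM untreated, 639 with apoptotic cells and 569 with LPS. Rps24, which has the longest tract shown above, stood at 1641 FPKM untreated, 986 with apoptotic cells and 790.0 with LPS. Both were more than 2-fold lower with LPS than untreated. Rps13, a bridge protein, stood at 1923 FPKM untreated, 1521 with apoptotic cells and 1080.1 with LPS. Rps15a, the lowest standard member above 0 in each library, stood at 240.3 FPKM untreated, 191 with apoptotic cells and 133 with LPS. These again had their lowest value with LPS. Rps21 was listed at 2520.2 FPKM untreated, 2034 with apoptotic cells and 0 with LPS. Rps3a, for which GENCODE gave no model under this symbol, was listed at 872 FPKM with LPS and 0 elsewhere. Rps27a is made as a fusion of ubiquitin with a ribosomal protein and so feeds the ubiquitin pool, and it stood at 2071 FPKM untreated, 1419.8 with apoptotic cells and 1154 with LPS.

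With apoptotic cells, ribosomal protein transcripts were lower than in the untreated library. Ratios were taken as log2((FPKM + 1)/(FPKM + 1)) for genes above 0 in both libraries whose mean over all 3 was 1 FPKM or more, which left 45 members. Their median was -0.60 with a distribution-free 95% interval over genes of -0.73 to -0.46, or 0.658-fold. In all, 44 of 45 lay below 0, which held for 55.4% of all 3369 genes compared, and the exception was Rpl39l at 0.03; with median-of-ratios scaling 43 of 45 did, Rpl41 being the other exception. The median of all genes was -0.13, so relative to it the members stood at -0.47. Other genes averaging 100 FPKM or more had a median of 0.68, and 24 of those 144 lay below 0.

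Members at least 2-fold lower with apoptotic cells numbered 5 of 45, or 11.1%, where 16.4% of all genes were. They were Rpl17 at -1.24, Rps7 at -1.10, Rpl3 at -1.06, Rpl5 at -1.05 and Rpl23a at -1.02. None was 2-fold higher, where 12.4% of all genes were. These counts depend on the scaling: 1 of 45 members was 2-fold lower with median-of-ratios scaling, where 428 of 3369 genes were, and 16 of 45 with a common sum of the genes outside the members, where 808 of 3369 were. At 1.5-fold, 24 of 45 members were lower, where 1021 of 3369 genes were. The share of members thus lay under or over the background with the setting. Rpl41 at -0.02, Rpl27a at -0.22 and Rpl7a at -0.24 were nearest to the untreated level apart from Rpl39l. The large subunit had a median of -0.63 over 29 genes and the small subunit -0.53 over 16. The intervals of the subunits overlapped, -0.84 to -0.46 and -0.83 to -0.34.

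With LPS, the members were also lower than in the same untreated library. The median over 47 members was -0.97, with an interval of -1.12 to -0.88, or 0.510-fold. With median-of-ratios scaling the medians were -0.39 with apoptotic cells and -0.35 with LPS, so their order depends on the scaling. In all, 46 of 47 lay below 0, against 66.5% of all 3421 genes, and Rpl39l at 1.11 was again the exception; with median-of-ratios scaling 43 of 47 did, and Rpl7a, Rpl24 and Rpl15 lay above 0 as well. The median of all genes was -0.40, so relative to it the members stood at -0.57. Other genes averaging 100 FPKM or more had a median of 0.44, and 43 of those 148 lay below 0.

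Past 2-fold, 22 of 47 members (46.8%) were lower with LPS, where 26.2% of all genes were. Rpl3 at -1.53, Rps7 at -1.51, Rpl36a at 35.4% of untreated, Rpsa at -1.46, Rpl17 at -1.44 and Rpl32 at -1.42 were the lowest. Next came Rpl23a at -1.38, Rpl21 at -1.33, Rps20 at -1.30, Rpl29 at -1.25, Rpl39 at -1.25 and Rpl36 at -1.23. The rest, among them Rpl13, Rps25, Rpl11, Rpl28, Rps24, Rpl6, Rps6 and Rps10, lay between -1.23 and -1.03. Rpl39l alone was at least 2-fold higher, where 8.51% of all genes were, but this rests on about 1 read untreated and 2 with LPS, with a counting interval of -3.15 to 6.99. It passed the filter on the mean through its LPS value. Rpl18 at -0.99 lay just short of the lower threshold, and Rpl7a at -0.13, Rpl24 at -0.15 and Rpl15 at -0.56 were nearest to 0. The large subunit had a median of -0.95 over 30 genes and the small subunit -1.03 over 17. With median-of-ratios scaling the split was 0 lower and 1 higher in place of 22 and 1, where 450 of 3421 genes were lower and 647 higher. With a common sum of the genes outside the members, 42 of 47 were lower, where 1303 of 3421 genes were. The member median stayed below that of all genes in both.

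**Figure D3:**
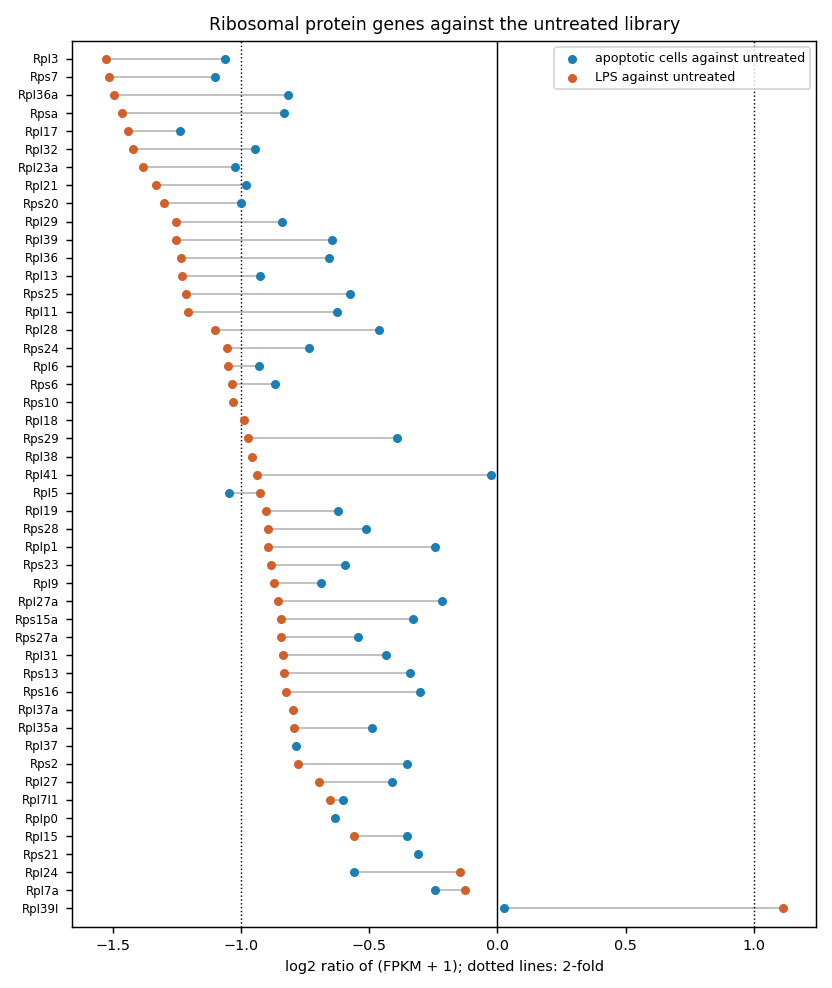
Log2 ratio of (FPKM + 1) to the untreated library for the ribosomal protein genes described in the text and above 0 in both libraries, blue for apoptotic cells and orange for LPS, a line joining the values of 1 gene and dotted lines at 2-fold. Values other than Rpl39l lie below 0, and LPS points lie farther left than blue points except for Rpl5, Rpl24, Rpl7a and Rpl39l; with median-of-ratios scaling 43 of 45 and 43 of 47 members lie below 0.

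These comparisons share the untreated library, so their values are set side by side and not combined. Directly compared, 43 of 47 members were higher with apoptotic cells than with LPS, where 69.6% of all 4599 genes were, but with median-of-ratios scaling 26 of 47 lay below 0 and the direction of the median reversed. The median was 0.38, with an interval of 0.30 to 0.48, beside 0.32 over all genes and 0.41 over 160 other genes averaging 100 FPKM or more. The members' difference between the treated libraries was thus close to that of all genes. Rpl41 at 0.92 was the highest, and Rpl36a at 0.68 was among the 3 highest. The members below 0, where 30.4% of all genes lay, were Rpl39l at -1.09, Rpl24 at -0.41, Rpl5 at -0.12 and Rpl7a at -0.12. Rpl39l was the sole member 2-fold lower, where 5.54% of all genes were, with a counting interval of -6.97 to 3.18 that spans 0. No member was 2-fold higher, where 15.7% were. The large and small subunits had medians of 0.35 and 0.41.

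**Figure D4:**
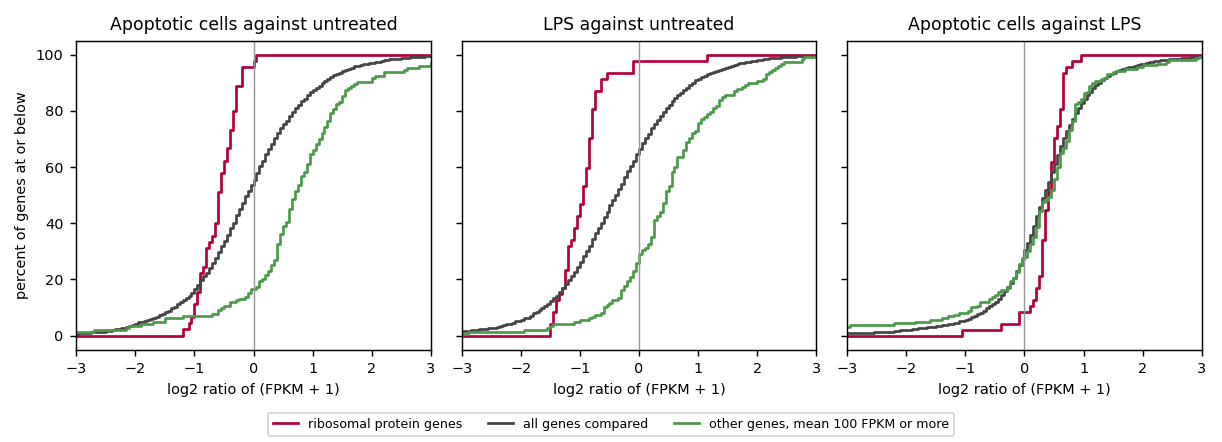
Percent of genes at or below each log2 ratio of (FPKM + 1) in the 3 comparisons, for ribosomal protein genes, all genes compared and other genes with a mean of 100 FPKM or more. In both comparisons with untreated the ribosomal curve is steep, and its median lies left of the other abundant genes (-0.60 against 0.68, and -0.97 against 0.44). The curves cross in the lower tail: with apoptotic cells against untreated, 0% of members and 6.25% of the other abundant genes lie at or below -1.25. With apoptotic cells against LPS the medians are 0.38 and 0.41, and the first turns to -0.03 with median-of-ratios scaling.

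The precision of a single ratio was limited by counting and by the unknown spread between cultures. The smallest steps between listed values put 1 FPKM on 1 kb at about 3.20, 3.20 and 3.05 reads (untreated, apoptotic cells, LPS). A member at 500 FPKM with 500 countable bases would then rest on about 763 reads with LPS, the shallowest of the 3. On that estimate the 95% interval from counting alone reached to either side by 0.025 to 0.241 (log2) over the abundant members with apoptotic cells against untreated. It reached by 0.027 to 0.270 with LPS against untreated and 0.031 to 0.295 between the treated libraries. The narrow end of each range was Rps20 alone, at about 38895 reads untreated for 357 coding bases, estimated from its shortest annotated transcript. Its width is therefore uncertain. For Rps16 the interval with apoptotic cells against untreated ran from -0.348 to -0.253. Ratios such as -0.02 for Rpl41 and -1.10 for Rps7 are farther apart than these widths, but the widths cover counting error only.

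The paralogue forms, grouped by their symbols, mostly encode relatives of standard proteins, several of them restricted to certain tissues. Rpl39l, a form of Rpl39 known from testis, was listed at 0.536 FPKM untreated, 0.563 with apoptotic cells and 2.32 with LPS, the one comparable member higher with LPS than untreated. These levels are a few FPKM at most, beside 1925, 1229.7 and 808 FPKM for Rpl39, and the coding sequences of the pair are identical at 130 of 153 bases (85.0%), so its values are uncertain where reads of the pair were split. Rpl3l, the heart and muscle form of Rpl3, was listed at 0.536 FPKM untreated, 0.382 with apoptotic cells and 0 with LPS, and its coding sequence matched that of Rpl3 at 74.8%. Rpl10l, which replaces Rpl10 in male germ cells, was listed at 0 throughout and matched Rpl10 at 84.7%. Rpl7l1 was listed at 41.2 FPKM untreated, 26.8 with apoptotic cells and 25.8 with LPS and matched Rpl7 at 64.9%. Rps4x, the X-linked copy that is the standard small-subunit protein in mice, was at 0 untreated, 881 FPKM with apoptotic cells and 730.2 with LPS. Rpl7l1 was thus the sole paralogue form other than Rps4x above 10 FPKM.

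Members also shared features of their genes that the choice of symbols did not use. A small nucleolar RNA gene lay inside 25 of 68 members on the same strand (36.8%), against 1.08% of coding genes, and members held 48 of the 242 such RNA genes found. Rpl4 held 5, the most of any member. GENCODE named at least 1 pseudogene after 52 of 68 members (76.5%), against 1.40% of coding genes, and 255 pseudogenes in all. Rpl31 had 24 and Rps12 had 23. Of the 25 members with a small nucleolar RNA gene inside, 8 were listed at 0 in at least 1 library, and of the 43 without, 18 were. Values of members with near-identical pseudogenes are uncertain where the counting split reads, and the part of this in the listed zeros was not tested.

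Ratios differed little with the annotated tract. Members with a tract within 5 bases of a transcript start had medians of -0.57 (15 genes) with apoptotic cells and -1.01 (16 genes) with LPS. Members without it had -0.61 (30 genes) and -0.96 (31 genes). Between the treated libraries the medians were 0.48 with and 0.31 without.

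Coding length, taken as the longest annotated, ran with the ratio in the apoptotic-cell library. Genes of up to 350 coding bases had a median of -0.49 against untreated (11 genes), those up to 500 bases -0.55 (18 genes) and longer ones -0.76 (16 genes). Spearman's rho over the 45 members was -0.38, beside -0.20 over 2920 other genes. With LPS the medians were -0.94, -0.97 and -1.03, and rho was -0.08 over 47 members, beside -0.16 over other genes. Between the treated libraries they were 0.58, 0.40 and 0.28, with a rho of -0.39, beside -0.08 over other genes. These are descriptions across genes that share 1 pair of libraries. The depth estimate took a different number of bases off transcript length in each library: 175 untreated, 250 with apoptotic cells and 225 with LPS. The part of such a difference in the relation to length was not tested.

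**Figure D5:**
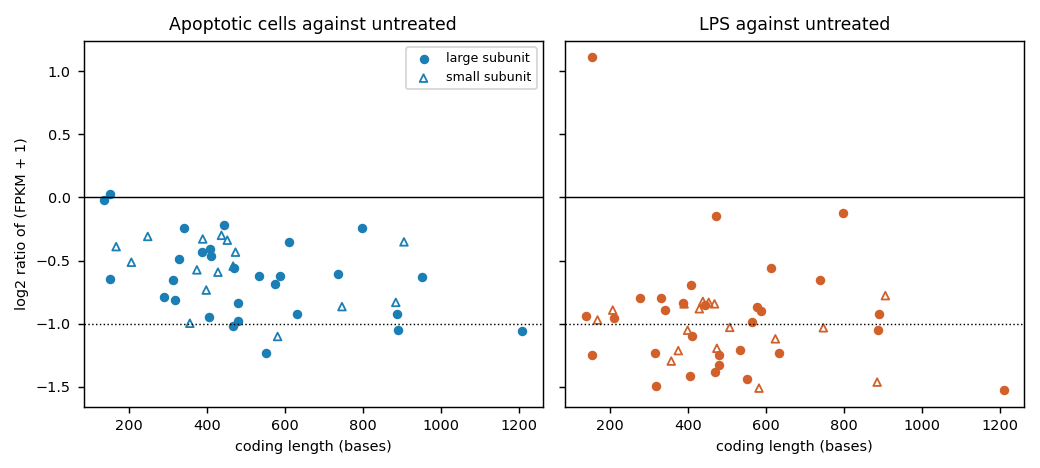
Log2 ratio of (FPKM + 1) to untreated against longest annotated coding length in bases, for large-subunit (filled circles) and small-subunit (open triangles) genes, with apoptotic cells at left and LPS at right and a dotted line at 2-fold lower. With apoptotic cells the short genes lie nearer to 0 (medians -0.49, -0.55 and -0.76 by length class), and with LPS the classes differ less (-0.94, -0.97 and -1.03).

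Other parts of the ribosome outside these symbols were also listed at 0 in 1 or more libraries. Rpl36al was listed at 381, 0 and 257 FPKM. Gnb2l1, the gene of the scaffold protein RACK1, was at 0 untreated and with LPS, and at 1076 FPKM with apoptotic cells.

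Other mRNAs known to carry the tract were mostly listed at 0 in a library. Of 16 listed, 8 were in the files, and Eef1g, an elongation factor subunit, alone was above 0 in all 3 libraries at 529, 387 and 335 FPKM. Its ratios were -0.45 and -0.66. Eef1a1, which brings tRNA to the ribosome, was listed at 5641 FPKM untreated and at 0 in both treated libraries. Eef2, the translocation factor, was at 0 untreated, 682 FPKM with apoptotic cells and 466 with LPS. Eif3k, an initiation factor subunit, was at 0, 284 and 162 FPKM. Too few of these genes had a value in the untreated library to describe the list against it.

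By the listed values, the factors that build ribosomes had medians nearer to 0 than the members did, over few genes. Of 40 listed assembly factors 38 were in the files, and 25 of these were at 0 in the untreated library. Against untreated, 11 could be compared with apoptotic cells, with a median of -0.16, of which 1 was 2-fold lower and 0 higher. With LPS 9 could be compared, with a median of 0.00, of which 1, Rrp1 at -1.02, was 2-fold lower and 0 higher. The medians of all genes were -0.13 with apoptotic cells and -0.40 with LPS. Median-of-ratios scaling moved the LPS median of all genes to 0.10 and that of the members to -0.35. The assembly factors were not recomputed under that scaling, so which set lies nearer to 0 is given for the listed values only. Nop10, a guide-RNA protein, stood at 75.7, 89.8 and 80.1 FPKM. Fbl, the rRNA methyltransferase fibrillarin, stood at 0, 146 and 0 FPKM, and Nhp2 at 59.0, 56.2 and 0 FPKM. Rrp1 was listed at 58.9, 46.8 and 28.5 FPKM. Between the treated libraries 23 assembly factors had a median of -0.27, with 15 of 23 below 0, and median-of-ratios scaling lowered every ratio of that comparison further.

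RNA polymerase I makes the ribosomal RNA. Its list had 3 genes comparable with untreated, with medians of -0.54 and -0.38. Polr1d stood at 141, 106 and 126 FPKM, Polr2e at 0, 62.0 and 24.6 FPKM, Polr2f at 0, 36.0 and 34.3 FPKM and Polr1c at 0, 15.2 and 12.7 FPKM. Among chaperones of single ribosomal proteins, Bccip stood at 59.6, 62.8 and 48.6 FPKM and Pdcd2, which serves Rps2, at 20.5, 11.5 and 7.65 FPKM. Grwd1 was listed at 0, 15.1 and 16.9 FPKM and Pdcd2l at 0, 16.9 and 10.8 FPKM. Among regulators of tract-bearing mRNAs, Rheb, the activator of mTOR, stood at 57.5, 73.0 and 105 FPKM, and Eif4ebp1, the translation repressor that mTOR switches off, at 58.8, 29.9 and 82.3 FPKM. Akt1s1 was listed at 0, 47.4 and 0 FPKM and Yy1 at 0, 16.4 and 17.4 FPKM. No common direction over these small lists was computed beyond their medians.

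Markers of other cells also differed between the libraries, and their part in the ribosomal protein values was not tested. Of the B cell markers, whose sums are given above, 7, 2 and 2 of 11 were listed at 0, and all 4 comparable with apoptotic cells and all 3 comparable with LPS were at least 2-fold lower than untreated. Ly6d stood at 563, 42.7 and 73.9 FPKM and Blnk at 82.7, 38.4 and 18.5 FPKM, while Cd79a, a defining gene, was at 0 untreated and with apoptotic cells. Cxcr5 stood at 214, 12.1 and 0 FPKM and Cd79b at 0, 85.6 and 19.1 FPKM. Mast cell and eosinophil markers were lower in 4 of 5 and 5 of 5 comparable genes past 2-fold, with Tpsb2 at 23.8, 4.72 and 2.99 FPKM. Mesothelial and fibroblast markers summed to 26.0, 2.24 and 1.13 FPKM, with Dcn at 11.4, 1.47 and 0.942 FPKM. The untreated library thus held the highest sums of all 3 lists as well as the highest ribosomal protein share. T cell markers summed to 31.0, 108 and 4.07 FPKM, with 8, 1 and 5 of 12 listed at 0 and Rag1 at 0, 41.2 and 0.679 FPKM. Over the T cell markers above 0 in all 3 libraries the sums were 17.0, 14.8 and 0.355 FPKM. Neutrophil markers summed to 118, 324.9 and 496 FPKM, most of it from Lcn2 at 64.1, 187 and 272 FPKM and S100a8 at 48.1, 116 and 222 FPKM. Mmp8 stood at 2.48, 15.98 and 0.548 FPKM, S100a9 at 1.65, 1.79 and 0 FPKM and Ngp at 0.611, 2.27 and 0 FPKM, so not all of that list was highest with LPS. Of macrophage markers 4 of 9 were in the files, among them Csf1r at 56.3, 185 and 0 FPKM, Cd14 at 303, 555 and 0 FPKM and Fcgr1 at 0.115, 3.29 and 0.377 FPKM. Csf1r and Cd14 were therefore listed at 0 in the LPS library. Large peritoneal macrophage markers summed to 806, 1285 and 780.0 FPKM, with 2, 7 and 4 of 10 listed at 0, and to 402, 1276 and 742 FPKM over those above 0 in all 3 libraries. Their values included Cd9 at 357, 912 and 630.5 FPKM, Cxcl13 at 44.7, 364 and 112 FPKM, Lyz1 at 349, 0 and 0 FPKM and F5 at 29.6, 0 and 0 FPKM, and Gata6, their defining factor, was listed at 0, 0 and 8.81 FPKM.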

How the data were processed

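RNA from 3 libraries of primary mouse peritoneal macrophages (untreated, apoptotic cells, LPS) was analysed from the authors' deposited tables, 1 value for each of 20574 symbols. The deposited values were taken as FPKM: per the file headers each column carries a library name only, and Cufflinks 2.2.1, Cuffdiff, TopHat2 2.1.0 and cutadapt 1.14 with build mm10 appear in the submitters' processing notes. Options, annotation and strandedness were not given in the sources used here. FPKM sums were 199881, 197222 and 200224. Log2 ratios used a pseudocount of 1 and genes above 0 in both libraries with a mean of at least 1 FPKM, and 67 of 69 members passed that mean. Depth was estimated from the steps between low values of genes with 1 coding transcript. With 1 library per group there was no test, and medians carry binomial 95% intervals over genes, which are not replicates. Gene models were GENCODE M21 (68 of 69 members) and the RefSeq start windows (50). No protein table was used, so paralogues were compared by coding sequence. Named genes are all members above 0 in all 3 libraries, the 5 highest and lowest levels per library, the 3 highest and lowest ratios, members past 2-fold, those listed at 0 (in 1 library with over 500 FPKM in the others, or in all 3), paralogue forms, and up to 4 genes of each related list by mean FPKM. Other members are given for completeness, and some genes that the rule names are counted but not reported here by name. The members and lists were chosen with earlier results of these data known. Alternatives were other pseudocounts, filters, scalings, fold thresholds and treatments of a listed 0. Python 3.11.15, pandas 2.3.3, numpy 2.4.6 and scipy 1.17.1 were used, and the ratio step was tested on simulated data.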

Additional observations from a re-analysis of the deposited data

How the results depend on the processing

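No paired analysis was possible because each group has 1 library. Leaving out a replicate was likewise not possible.

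The member median stayed below 0 and below the median of all genes under each alternative in both comparisons with untreated. Scaling moved the median of all genes by 0.18 (median of ratios) and -0.25 (common sum of genes outside the members) with apoptotic cells, by 0.51, -0.30 and 0.14 (upper quartile) with LPS, and by -0.33 and -0.10 (median of ratios, upper quartile) between the treated libraries. With the common sum of genes outside the members, the member median was -0.89 with 16 lower (apoptotic cells, where 808 of 3369 genes were lower) and -1.32 with 42 lower and 0 higher (LPS, where 1303 of 3421 were lower). With median-of-ratios scaling it was -0.39 with 1 lower and -0.35 with 0 lower, or -0.45 relative to all genes with LPS, and with upper-quartile scaling -0.80 with LPS. Between the treated libraries median-of-ratios scaling reversed the median to -0.0295, the large-subunit median to -0.0541 and the median relative to all genes to -0.0170, and upper-quartile scaling gave 0.24. A pseudocount of 0.1 turned that relative median to -0.0045, and a pseudocount of 5 gave 0.19. The relative median was -0.62 (apoptotic cells) and -0.72 (LPS) at a mean of at least 5 FPKM, and -0.73 with LPS at a pseudocount of 5. Those 2 settings, like leaving out the paralogue forms, removed the call for Rpl39l, leaving 0 higher with LPS and 0 lower between the treated libraries. Taking a listed 0 as a value gave relative medians of -0.97 with apoptotic cells and -1.08 with LPS. With apoptotic cells 11 of 58 members were then lower and 7 higher, where 21.3% and 41.4% of all genes were. With LPS 26 of 65 were lower and 15 higher, where 25.5% and 39.6% were. Between the treated libraries 15 of 66 were lower and 5 higher, where 20.8% and 25.5% were. At 1.5-fold 24 of 45 members (apoptotic cells) were lower, where 30.3% of all genes were, and 43 of 47 (LPS), where 42.7% were. Between the treated libraries 9 of 47 were higher at 1.5-fold, where 33.4% of all genes were. At 4-fold 0 members were called in any comparison. Of all genes, 4.24% were then lower and 2.85% higher with apoptotic cells, and 5.67% and 1.99% with LPS. Between the treated libraries 1.96% were lower and 3.22% higher. Counts of members listed at 0 stayed within 1.5 times. Of the single-gene values, 1216 stayed inside their counting interval and 290 moved out of it. The causes were not tested beyond what each setting changes.

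Limits are the single library per condition, the unit and depth inferred from the values, exact zeros of abundant genes, and near-identical copies that share reads.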
